A study of Mus musculus with 16 samples.

Results

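H19 and Igf2 lie side by side near the end of mouse chromosome 7 and are the best known pair of imprinted genes, each read from the copy of 1 parent only. They were examined here as the peaks that overlapped chr7:149755000-149860000 in the mouse build mm9, a window of 105 kb in which H19 lies near 149.762 Mb and Igf2 near 149.84 Mb. Of 289751 peaks in 24 deposited lists, 5 fell in this window, 3 of them in lists against whole-cell extract and 2 in difference lists. The other 19 lists held no peak there.

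The lists came from chromatin immunoprecipitation and sequencing (ChIP-seq) of histone H3 marks in immortalized lines of mouse mesenchymal stem cells (MSCs), the fibroblast-like stromal cells of adult tissues that can form bone, fat and cartilage. KO lines were Dicer -/- and WT lines were Dicer f/f, that is, they carried the floxed but intact gene. Both genotypes were given as strain C57BL/6, were immortalized, were monoclonal, and were grown in the same serum-containing medium, so each line stands for 1 clone. The marks were H3K4me3, which marks promoters in use or ready for use, H3K36me3, which builds up along genes as they are transcribed, and H3K27me3, the product of Polycomb repressive complex 2, with 2 libraries per mark and genotype. The labels do not say whether the 2 replicates of a group were separate cultures or clones, so any p-value measures only the spread between these libraries. Peak lists hold no read counts and no allele, so sequencing depth was unknown and the maternal and paternal copies could not be told apart. MSC identity was not tested, because no mm9 gene annotation was used.

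Igf2 encodes a growth factor that drives fetal and placental growth, and it is normally read from the paternal copy. H19 is a long noncoding RNA read from the maternal copy. Between the genes, just upstream of H19, lies a control region that binds the insulator protein CTCF when unmethylated on the maternal copy, which keeps shared enhancers beyond H19 from reaching Igf2, and that is methylated on the paternal copy. Both genes are strongly expressed in the mouse fetus and are turned down in most tissues after birth. H19 RNA has also been described, in human and mouse cells, as binding let-7, the microRNA family named in the title of the series.

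Each gene also hosts a microRNA precursor of the kind that Dicer, the enzyme missing in KO lines, cuts into mature arms. The precursors are shown because their processing is what the deletion removes, while the peak lists report only on the chromatin of their host genes. In the RefSeq table of build GRCm38.p6 the hairpin inside H19 is Mir675 and the hairpin inside Igf2 is Mir483, both on the minus strand, and capitals mark the 2 mature arms in each.
Mir675: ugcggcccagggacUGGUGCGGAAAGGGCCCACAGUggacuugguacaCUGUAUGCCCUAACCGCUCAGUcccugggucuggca
Mir483: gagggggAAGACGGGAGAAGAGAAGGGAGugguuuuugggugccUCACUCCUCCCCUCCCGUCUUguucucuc
In the mature arms, capitals mark the seed, bases 2 to 8 from the 5′ end.
mmu-miR-675-5p: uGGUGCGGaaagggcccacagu
mmu-miR-675-3p: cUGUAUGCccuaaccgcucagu
mmu-miR-483-5p: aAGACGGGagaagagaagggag
mmu-miR-483-3p: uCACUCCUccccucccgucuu
The 4 arms had 4 different seeds, and none of these seeds was shared with another of the 1679 mature microRNAs of the table.

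Igf2 is read from several promoters, and the RefSeq table lists 4 starts for it, each as 250 bases before and 50 bases after the start on the minus strand of GRCm38.p6. CpG sites matter here because Polycomb marking in mammals tends to settle on CpG-rich promoters that are not transcribed. Counted in the direction of transcription, the starts 1 and 3 are shown as the CpG-poorest and the CpG-richest, with each CG in capitals.
Igf2 start 1, chr7:142666767-142667066 (GRCm38.p6, minus strand): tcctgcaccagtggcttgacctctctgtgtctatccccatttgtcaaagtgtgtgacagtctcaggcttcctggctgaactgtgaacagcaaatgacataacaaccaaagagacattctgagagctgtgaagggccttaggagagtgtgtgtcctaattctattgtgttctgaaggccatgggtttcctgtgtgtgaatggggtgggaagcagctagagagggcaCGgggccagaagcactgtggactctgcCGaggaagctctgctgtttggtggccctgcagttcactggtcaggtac
Igf2 start 3, chr7:142658755-142659054 (GRCm38.p6, minus strand): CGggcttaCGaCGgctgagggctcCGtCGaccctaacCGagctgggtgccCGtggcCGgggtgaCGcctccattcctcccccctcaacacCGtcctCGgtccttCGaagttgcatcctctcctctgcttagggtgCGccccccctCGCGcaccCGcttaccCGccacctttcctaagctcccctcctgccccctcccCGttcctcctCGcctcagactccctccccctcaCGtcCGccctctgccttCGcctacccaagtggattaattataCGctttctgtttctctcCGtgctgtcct
Along the gene the 4 windows held 2, 14, 24 and 7 CpG sites, against a median of 7 over 32851 promoter windows of the same length. Start 1 had more CpG sites than 14.1% of these windows, and starts 2 and 3 lay above the median. The GC box GGGCGG, the core of the site bound by Sp1, was found on either strand in 2 of the 4 Igf2 windows, the CpG-richest among them, and in 35.7% of all windows. These positions belong to another build than the peaks and cannot be laid over them, so no peak was assigned to a single Igf2 start. The promoter windows held 0 entries for H19, so no H19 start is shown, and its position is the approximate one given above.

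The first comparison asked which marks the window carried in KO and in WT lines, and the answer was almost none outside Igf2. In the lists against whole-cell extract, H3K4me3 covered 0 and 0 bp of the window in KO replicates 1 and 2, against 0 and 803 bp in WT replicates 1 and 2. H3K36me3 covered 0 bp in each of the 2 KO and 2 WT libraries. H3K27me3 covered 0 and 0 bp in KO replicates 1 and 2, against 700 and 5147 bp in WT replicates 1 and 2. All 6 KO libraries were thus without a peak in the window, and H3K27me3 was the mark for which both WT libraries held one. Empty windows were common: 48.7% of 25115 windows of the same length over the genome had no peak of any mark in KO, and 97.9% and 79.0% had no H3K27me3 peak in KO replicates 1 and 2, against 94.7% and 79.1% in WT replicates 1 and 2.

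**Figure D1:**
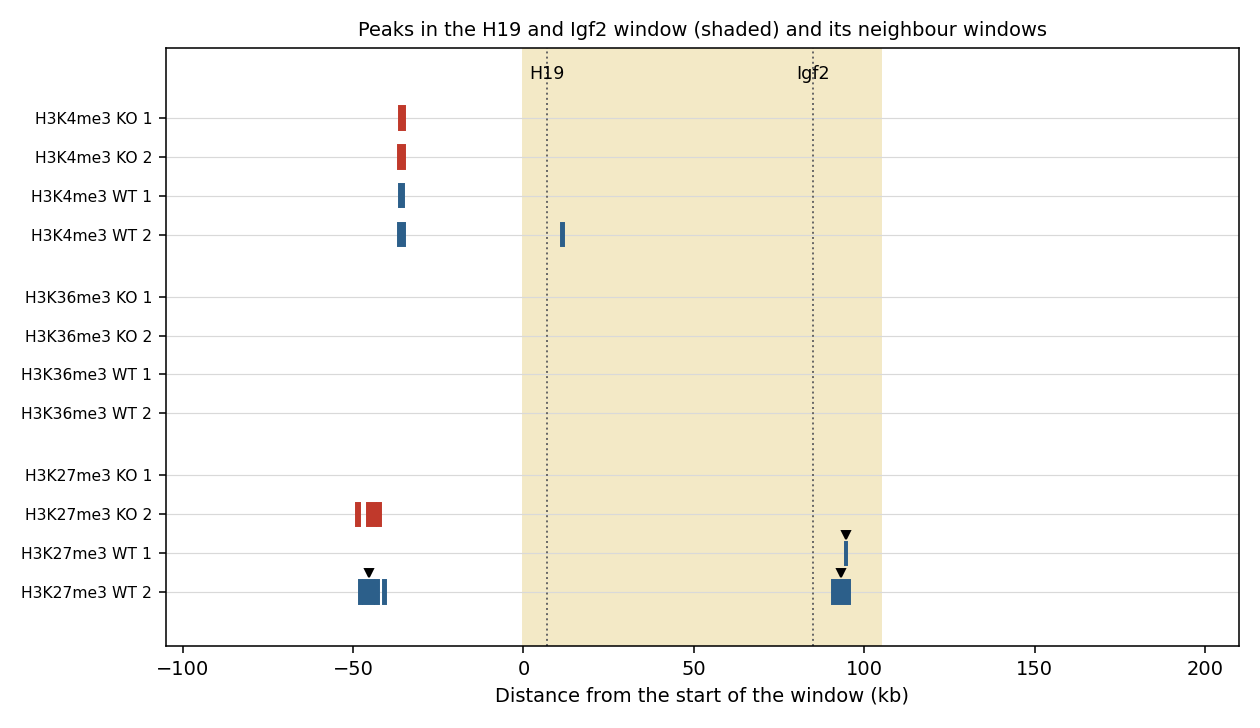
Peaks of the 12 ChIP libraries in the 105 kb window (shaded) and in the windows of the same length on either side, as bars drawn to scale along the distance from the start of the window in kb, with KO libraries in red above WT libraries in blue for each mark. Black triangles mark difference-list peaks and dotted lines mark the approximate positions of H19 and Igf2: the shaded window holds 1 H3K4me3 bar and 2 H3K27me3 bars, all in WT.

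H3K27me3 was the mark whose peaks at this locus were found in both WT libraries and in neither KO library. Mean covered length was 0 ± 0 bp in KO and 2924 ± 3144 bp in WT (SD, n = 2 each), and the KO and WT values did not overlap. The share of windows of the same length without such overlap was not counted. Over the genome, both WT libraries and no KO library listed 1.57% of 24016 H3K27me3 regions. The mean difference, KO minus WT, was -4.36 on the log2(covered bp + 100) scale, with exact two-sided permutation p = 0.333 (n = 2 each), the smallest p that this design allows. The size of that difference depends on the added 100 bp, because both KO values are 0: with 1000 bp added it was -1.69. KO and WT no longer lay apart, with exact permutation p = 1, when scores of at least 160 were required, and with p = 0.667 when the window was made 50 kb wider on either side, where H3K27me3 covered 0 and 5170 bp in the KO libraries, against 700 and 11410 bp in the WT libraries. The SD of the WT replicates was larger than their mean.

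**Figure D2:**
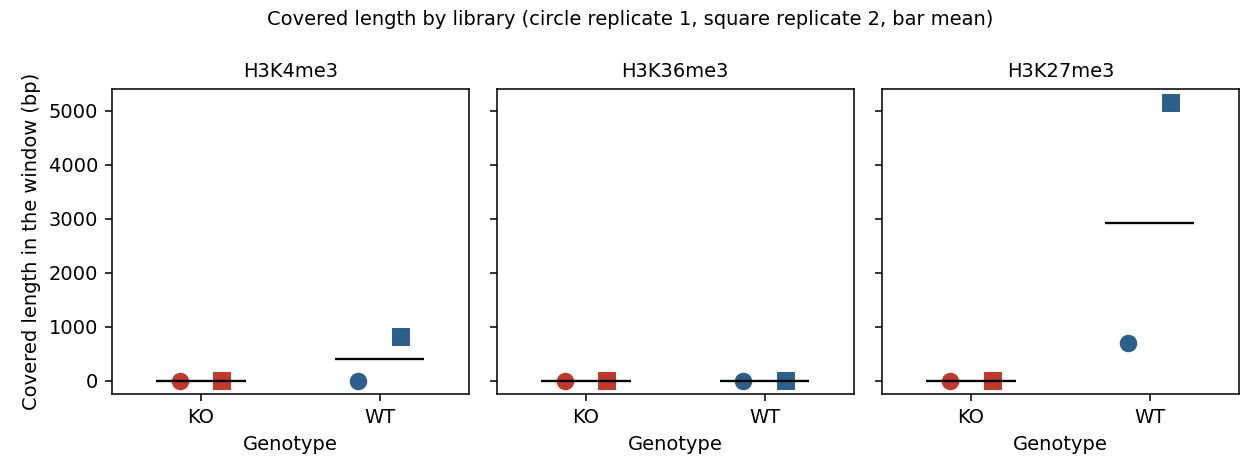
Covered length of the window in bp for each mark, with KO left of WT, circles for replicate 1, squares for replicate 2 and a bar for the mean. H3K36me3 lies at 0 bp throughout, the H3K4me3 point above 0 is WT replicate 2 at 803 bp, and the H3K27me3 points above 0 are WT at 700 and 5147 bp.

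The H3K27me3 peaks sat at the Igf2 end of the window. In WT replicate 2 the peak spanned chr7:149845643-149850789 (mm9), 5147 bp with its centre 8.22 kb from the approximate position of Igf2 on the side away from H19. In WT replicate 1 it spanned chr7:149849248-149849947, 700 bp, all of which lay inside the replicate 2 peak. Neither KO list held a peak here, and the H19 end of the window had no H3K27me3 peak in any library. The region is called the Igf2 region for its place only, since gene models of mm9 were not used here.

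The peaks ranked very differently in their own lists. In WT replicate 2 the deposited score was 1344.22, above 86.4% of the 14955 peaks of that list, and 89.1% of its peaks were narrower. In WT replicate 1 the score was 93.49 in a list whose lowest score was 80, above 15.9% of its 2562 peaks, and 14.4% were narrower. The Igf2 peak was thus a strong and broad one in the long WT list and a weak and narrow one in the short WT list.

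**Figure D3:**
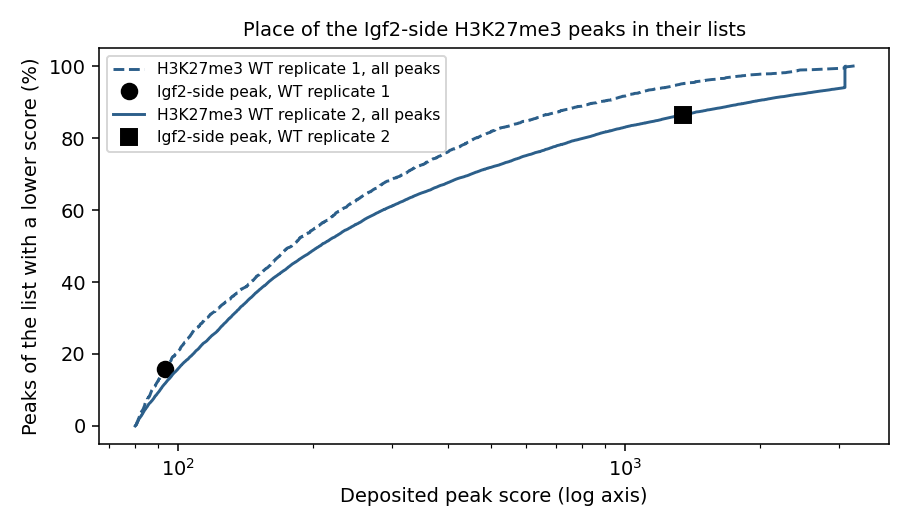
Deposited score of every H3K27me3 peak in the WT replicate 1 list (dashed) and the WT replicate 2 list (solid), on a log axis, against the share of peaks with a lower score, with the Igf2-side peak of each list as a black point. The replicate 2 peak stands at 86.4% and the replicate 1 peak at 15.9%.

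The difference lists, whose control is not named in the labels and which were read as 1 genotype against the other, called the same place. They are not independent of the lists against whole-cell extract. Of the H3K27me3 difference peaks of WT replicates 1 and 2, 96.2% and 97.5% had the coordinates of a peak there. The merged H3K27me3 region at Igf2 held a WT difference peak of 700 bp in replicate 1 and of 5147 bp in replicate 2, and no KO difference peak in either, so it was WT-higher in both replicates. It was the only H3K27me3 region in the window, and over all 24016 regions 0.171% were KO-higher and 3.76% were called WT-higher in both replicates. These 2 shares are not on an equal footing. The H3K27me3 difference lists held 113 and 4056 peaks in KO replicates 1 and 2, against 1422 and 5186 in WT. The short list of KO replicate 1 limits how many regions could be KO-higher in both. The call at Igf2 ended when scores of at least 160 were required, since the replicate 1 peak fell below, and when a difference peak had to cover at least 50% of the region. Taken by replicate, a WT difference peak was found in 4.03% of regions in replicate 1 and in 21% in replicate 2. Scores in the difference lists equalled those against whole-cell extract, 93.49 and 1344.22, which 6.19% and 6.27% of the WT replicate 1 and 2 difference peaks did with identical coordinates and scores within 0.005.

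Among all H3K27me3 regions, 1.57% were listed in both WT libraries and in no KO library, as at Igf2. Of the 904 regions that were WT-higher in both replicates, 280 (31.0%) had no peak in either KO list. The median width of these 280 was 4956 bp, and 129 of them were wider than the Igf2 region. The replicate 1 peak covered 13.6% of the length of the replicate 2 peak at Igf2, against a median of 30.3% over the 280, of which 23 had a lower share. A region counted here had to be listed in WT, so these values describe the group and test nothing.

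The 2 KO lists of H3K27me3 differed greatly in length. The H3K27me3 list of KO replicate 1 had 706 peaks in all, and its nearest peak on the H19 side was 11066 kb away, with none between the window and the chromosome end. The list of KO replicate 2 had 17516 peaks, more than WT replicate 2 with 14955, and covered 34.4 Mb against 37.9 Mb. KO replicates 1 and 2 listed 13.6% and 87.0% of the 2126 H3K27me3 regions that were at least as wide as the one at Igf2, against 50.4% and 95.1% in WT replicates 1 and 2. Region width was taken over the 4 lists together and is therefore not independent of the WT peaks.

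H3K4me3 had 1 peak in the window, at the H19 end. It spanned chr7:149765962-149766764 (mm9), 803 bp, in WT replicate 2, with its centre 4.36 kb from the approximate position of H19 on the side that faces Igf2. The other 3 H3K4me3 libraries, both KO and WT replicate 1, had none. Its score of 127.18 was above 7.10% of the 18322 peaks of the list, whose median was 3100, and 3.70% of them were narrower. No difference list held a peak there, so the region was called in neither direction, against 10.8% of 25204 H3K4me3 regions that were KO-higher and 1.12% that were WT-higher in both replicates. Regions listed in WT replicate 2 alone made up 4.46% of all H3K4me3 regions. Mean covered length was 0 ± 0 bp in KO and 402 ± 568 bp in WT (SD, n = 2 each), and the exact two-sided permutation p was 1. Whether the peak touches the control region upstream of H19 was not tested, since no mm9 annotation of that region was used. A gap of 78.9 kb separated it from the H3K27me3 peak, so the marks did not meet.

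H3K36me3, which follows elongating RNA polymerase along transcribed genes, was not listed over either gene in any library, so no region could be called, while calls in both replicates were made at 0.668% (KO-higher) and 1.24% (WT-higher) of the 39794 H3K36me3 regions of the genome. The nearest H3K36me3 peak on the H19 side lay 185.5 and 183.6 kb from the window in KO and 183.4 and 183.5 kb in WT. On the Igf2 side it lay 841.4 and 840.0 kb away in KO, against 387.8 and 388.8 kb in WT. The edge on the H19 side was thus alike in all 4 libraries, and the one on the Igf2 side was farther off in both KO libraries. The region at that edge in WT, chr7:150247764-150249730, held no difference peak of any library. KO replicates 1 and 2 listed 40.2% and 51.1% of all H3K36me3 regions, against 49.3% and 88.2% in WT replicates 1 and 2. An empty window was common for this mark: 69.0% of the 25115 windows had no H3K36me3 peak in any library. A lack of peaks says only that no signal passed the threshold of the caller at an unknown depth.

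Of the 12 libraries, 6 had a peak in a neighbour window of the same length. On the H19 side an H3K4me3 region at chr7:149718250-149720172 had 1770 and 1839 bp of peak in the KO libraries, against 1444 and 1923 bp in the WT libraries, so it was listed in every H3K4me3 library. On the same side H3K27me3 covered 5170 bp of the neighbour window in KO replicate 2 and 6263 bp in WT replicate 2, and 0 bp in replicate 1 of KO and of WT. The neighbour window on the Igf2 side held no peak in any of the 24 lists. KO replicate 2 therefore had H3K27me3 peaks 41.8 kb from the window and none at Igf2.

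Over the 500 kb on either side, a span chosen after the values were seen, the Igf2 region was the one H3K27me3 region that WT replicate 1 listed. H3K27me3 regions in this stretch numbered 18 outside the window, of which 0 and 3 were listed in KO replicates 1 and 2, against 0 and 18 in WT replicates 1 and 2. Of the 19 regions with Igf2 included, 9 were WT-higher in replicate 2, and the Igf2 region alone was WT-higher in both replicates. Over chromosome 7 as a whole, KO replicate 2 listed 51.1% of 779 H3K27me3 regions and WT replicate 2 listed 74.3%, against 65.4% and 58.5% over all chromosomes. Replicate 1 listed 1.03% in KO and 7.70% in WT on chromosome 7, against 2.42% and 6.52% over all chromosomes. At such shares, 1 region of 19 listed in WT replicate 1 does not single out Igf2. WT-higher calls in replicate 2 made up 31.5% of the regions of chromosome 7, against 21% of all regions, while WT-higher calls in both replicates made up 3.85%, against 3.76% of all. The part that this difference in replicate 2 plays at Igf2 was not tested.

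**Figure D4:**
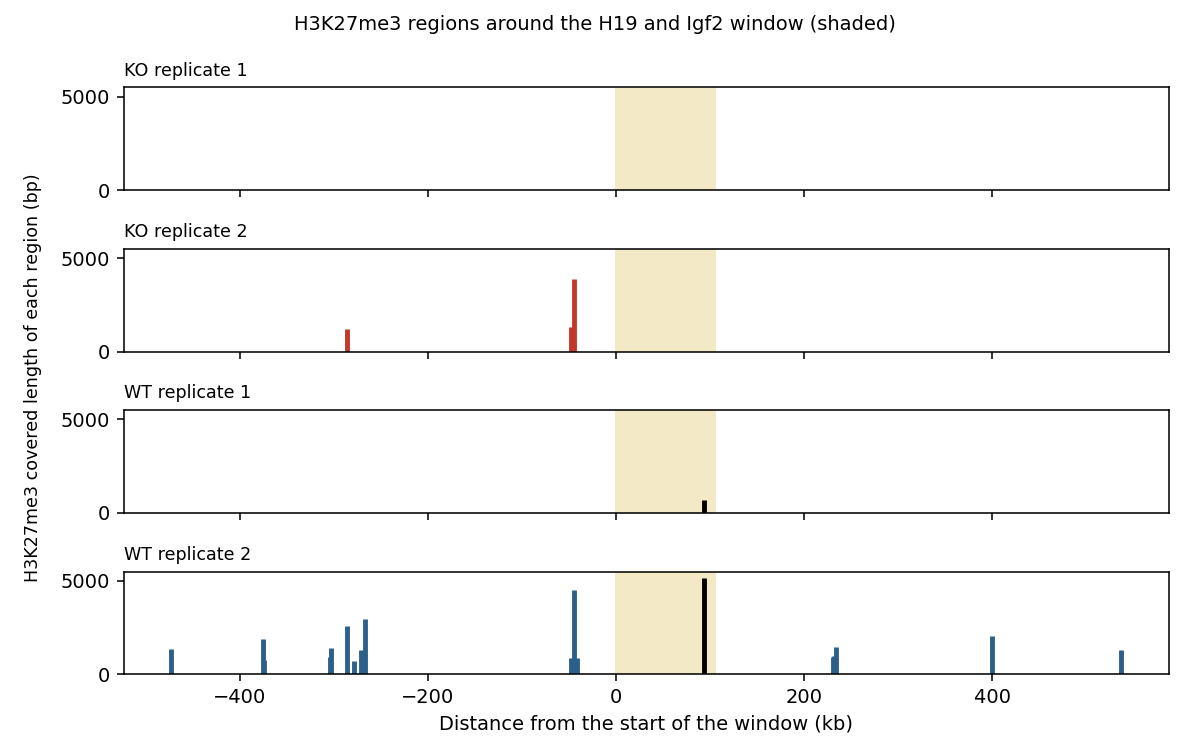
Covered length in bp of each merged H3K27me3 region within 500 kb of the window (shaded), by library, against the distance of its centre from the start of the window in kb, with the Igf2 region in black. The KO replicate 1 panel is empty, KO replicate 2 shows 3 regions on the H19 side, WT replicate 1 shows the Igf2 region alone at 700 bp, and in WT replicate 2 the Igf2 region is the highest at 5147 bp.

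Few windows of the genome shared the pattern of this one. The pattern was taken from the values of this window, so the counts describe it and test nothing. Of 25115 windows of 105 kb, 1326 (5.28%) held H3K27me3 in both WT libraries. Among all windows, 69 (0.275%) did so with no peak of any mark in KO, as the H19 and Igf2 window did, and 38 (0.151%) held H3K27me3 in both KO libraries with no peak of any mark in WT. The counts 69 and 38 cannot be compared directly. Fewer windows could qualify in KO, since 97.9% had no H3K27me3 peak in KO replicate 1, against 94.7% in WT replicate 1. The 3 windows closest to it in covered length over the 12 libraries, by Euclidean distance of log2(covered bp + 1000), were chr17:51870001-51975000, chr4:84840001-84945000 and chr18:43680001-43785000, at distances of 0.158, 0.242 and 0.579. The nearest of these had no peak in any KO library, and in WT it had 944 bp of H3K4me3 in replicate 2 and 820 and 5402 bp of H3K27me3 in replicates 1 and 2. No gene was assigned to these windows.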

How the data were processed

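The series has 16 samples: 12 ChIP libraries and 4 whole-cell extract samples, which had no lists of their own here. Per the submitters' processing notes, Bowtie 0.12.7, build mm9 and MACS were used; no version of MACS is given among those used here. Each library came with 2 peak lists, called without pooling, and each peak with a score that the authors deposited and whose formula the sources used here do not give. What the difference lists were called against is likewise unstated, and they were read as KO against WT of the same mark, on which every WT-higher call rests. In all lists 74.6% to 97.8% of difference peaks had the coordinates of a peak in their library's own list.

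Covered length was clipped to the window. Per mark, peaks of the 4 lists against extract on chromosomes 1 to 19 and X were merged into regions, and a region was called with at least 1 bp of a difference peak. Genotypes were compared on log2(covered bp + 100) with an exact permutation test. The rule names all regions in the window and the 3 windows most like it. Regions named around the window were chosen after their values were seen. Alternatives changed the score threshold, added length, scaling, overlap, window and libraries. The code was tested on simulated lists (Python 3.11.15, NumPy 2.4.6). The window, genes and comparisons were chosen with earlier results of these data known. RefSeq sequences come from GRCm38.p6, and no positions were converted between builds.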

Additional observations from a re-analysis of the deposited data

How the results depend on the processing

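The H3K27me3 difference at Igf2 lay on the WT side under every alternative that kept the Igf2 end of the window. Both KO libraries had 0 bp in the window, so this outcome was fixed in advance for most alternatives. Only the wider window could have put the difference on the KO side. On the log2(covered bp + 100) scale it was -2.86 with scores of at least 160 (exact permutation p = 1), -4.84 per Mb of the list, -2.06 with the window 50 kb wider on either side (exact permutation p = 0.667), and between -5.71 and -3 with 1 library left out, without either replicate 1 included. With 1000 bp in place of 100 it was -1.69, and in the part of the window with H19 it was 0. The WT-higher call in both replicates ended, with a count of 0, when scores of at least 160 were required, which dropped the replicate 1 peak, and when difference peaks had to cover at least 50% of the region. With replicate 1 or 2 left out the count was 1. The H3K4me3 difference, -1.59, rested on 1 peak: it was 0 with scores of at least 160 and in the part with Igf2, and between -3.17 and 0 with 1 library left out. H3K36me3 was at 0 throughout, and every count of KO-higher regions, and of WT-higher H3K4me3 and H3K36me3 regions, was 0 under every alternative run, with leave-one-out ranges of 0 to 0.

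Region by region, replicate numbers did not pair the libraries. Deviations of same-numbered libraries from their group means correlated at 0.0677 for H3K4me3, 0.00951 for H3K36me3 and -0.357 for H3K27me3 over the merged regions. The total length of a list did go with its number: it was larger in replicate 2 for every mark in both genotypes. For H3K27me3, replicate 1 lists summed to 0.732 Mb (KO) and 4.67 Mb (WT), while replicate 2 lists reached 34.4 Mb (KO) and 37.9 Mb (WT). The source of this shared difference was not tested. With a replicate block the H3K4me3 difference was -1.59, the H3K36me3 one 0 and the H3K27me3 one -4.36, and the exact sign-flip permutation p-values were 1, 1 and 0.5, where 0.5 is the smallest possible. Crossing the numbers for H3K27me3, chosen after seeing the data, also gave -4.36. The mean difference is the same however the libraries are paired, so these unchanged values carry no support. With 0.5 as the smallest p, the crossing could call nothing. Depth is unknown, so a weak mark cannot be told from none.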

Other observations

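Of the H3K36me3 regions around the locus, outside the window, 4 were listed in both WT libraries and in neither KO library. They lay on both sides of the window. The share of all H3K36me3 regions with this listing is not given here, so the count is not read as particular to the locus. On the Igf2 side, regions at chr7:150247764-150249730 and chr7:150252149-150254895 had no peak in either KO library, against 1112 and 972 bp in WT replicates 1 and 2 for the first and 1851 and 2360 bp for the second. No difference list called either of them. On the H19 side, chr7:149268326-149269796 and chr7:149272066-149274486 had no peak in KO, against 980 and 1452 bp and 1859 and 1511 bp in WT, and the second held a WT difference peak in replicate 2. Nearer to the window, chr7:149565060-149569888 had 2943 and 1570 bp of peak in the KO libraries, against 3076 and 4772 bp in the WT libraries, so H3K36me3 was listed there in both genotypes. H3K36me3 regions within 500 kb of the window numbered 7, of which 2 and 3 were listed in KO replicates 1 and 2 and 7 and 7 in WT replicates 1 and 2. Over the genome KO replicates 1 and 2 listed 40.2% and 51.1% of the 39794 H3K36me3 regions, and WT replicates 1 and 2 listed 49.3% and 88.2%. No test was run on these 7 regions.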
